A study of Homo sapiens with 2 samples.

Results

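Populations of OVCAR5 cells low in IRF1 were compared with each other, to see which genes differed among cells without a high interferon response. Each cell of the pool carried a pair of antibody hashtags out of 8, and each population is named by its pair. The 4 populations, pairs 1+2, 2+4, 3+5 and 5+7, had been chosen by their IRF1 level, so that level is given only as a description. A cell was kept if it had 500 or more genes detected and no more than 20% of its UMIs from mitochondrial genes. Its 2 highest hashtags made the pair, kept when the second held at least 5 times the third plus 1 UMI. The pairs held 340, 320, 493 and 334 cells, 1487 in all of 6114 cells with a pair and 7201 that passed the filter. IRF1 stood at 57.9, 43.7, 60.4 and 70.8 CPM (UMIs scaled to a common total per pair) in the order given, which is kept for every list of values below. Of the other 14 pairs, pair 1+5 lay inside that range at 53.6 CPM, and the next above was pair 5+8 at 808 CPM.

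OVCAR5 is an ovarian carcinoma line, here with a CFP-marked reporter of interferon-gamma sensing, so every group shared that genotype. The labels name 18 conditions in a single pool: no cytokine or 1, 10 or 100 ng/ml of interferon-gamma for 2, 6, 12 or 24 h, and frozen cells from the 24 h cultures at 0 and 100 ng/ml. Of these, 5 had no cytokine. The labels do not say which hashtags marked which condition, so no pair is given a dose, a time or a freezing step here. Each pair was 1 sample of 1 line with no replicate, so no test was possible, and intervals (exact, 95%) cover counting error only.

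CCN1 and CCN2 are secreted matricellular proteins, which sit in the extracellular matrix and act on integrins and growth factors. Their genes are widely used readouts of YAP and TAZ, coactivators held in the cytoplasm by Hippo kinases and brought to DNA by TEAD proteins when cells spread or lose contact. Cholesterol synthesis is run by SREBP2, a factor released from the endoplasmic reticulum when sterols fall, which works at promoters together with NF-Y.

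The promoters of 2 matricellular or YAP target genes and 3 sterol genes are shown because these genes carried the largest differences of their lists. They are RefSeq sequences of GRCh38.p14, the 250 bases before the annotated start, written on the gene's strand. Capitals mark TEAD core letters (GGAATG) and NF-Y letters (CCAAT) on either strand. They come from chr6:131951373-131951622 (minus strand, CCN2), chr10:90921088-90921337 (minus, ANKRD1), chr7:155297628-155297877 (plus, INSIG1), chr5:111512536-111512785 (minus, STARD4) and chr5:43313413-43313662 (minus, HMGCS1).
CCN2: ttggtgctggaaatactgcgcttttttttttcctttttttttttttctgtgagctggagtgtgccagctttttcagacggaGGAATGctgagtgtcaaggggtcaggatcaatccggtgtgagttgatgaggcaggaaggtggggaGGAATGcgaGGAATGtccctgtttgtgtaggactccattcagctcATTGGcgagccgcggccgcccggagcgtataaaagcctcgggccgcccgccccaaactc
ANKRD1: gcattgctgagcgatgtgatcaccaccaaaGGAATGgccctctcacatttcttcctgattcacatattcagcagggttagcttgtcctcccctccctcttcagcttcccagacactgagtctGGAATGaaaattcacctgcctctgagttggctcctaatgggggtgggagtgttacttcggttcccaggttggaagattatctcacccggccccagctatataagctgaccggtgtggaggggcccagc
INSIG1: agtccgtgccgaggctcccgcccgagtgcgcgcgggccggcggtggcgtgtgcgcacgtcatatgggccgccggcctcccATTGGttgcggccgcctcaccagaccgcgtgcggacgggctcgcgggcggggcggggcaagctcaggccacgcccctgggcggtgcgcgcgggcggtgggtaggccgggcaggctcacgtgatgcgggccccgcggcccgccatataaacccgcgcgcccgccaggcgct
STARD4: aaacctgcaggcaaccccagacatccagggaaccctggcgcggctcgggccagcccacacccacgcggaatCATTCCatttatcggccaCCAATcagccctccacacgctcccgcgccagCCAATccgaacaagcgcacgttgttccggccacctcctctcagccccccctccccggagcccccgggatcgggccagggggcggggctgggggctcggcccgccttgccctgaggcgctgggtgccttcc
HMGCS1: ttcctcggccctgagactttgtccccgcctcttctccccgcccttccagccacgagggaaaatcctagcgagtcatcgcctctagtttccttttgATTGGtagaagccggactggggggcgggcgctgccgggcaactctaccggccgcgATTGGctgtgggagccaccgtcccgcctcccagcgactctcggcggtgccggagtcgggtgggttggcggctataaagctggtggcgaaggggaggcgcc

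The CCN2 promoter held 3 TEAD matches, which began 169, 104 and 95 bases before the start, and the ANKRD1 promoter held 2, at 220 and 128 bases. Such a match was present in 7 of the 21 matricellular and YAP target promoters found in the table (33.33%). It was present in 4 of 19 sterol promoters (21.05%) and in 11.89% of all 35116 promoters of the same length. The NF-Y letters were present in 16 of the 19 sterol promoters (84.21%) and 5 of the 21 matricellular and YAP target ones (23.81%), against 32.01% of all promoters. The full sterol response letters CACCCCAC were present in 1 of those 19, that of SREBF2, against 2.432% of all. The promoter of CCN1 was not in the table. A match is a description of these letters, not a measured binding site.

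Depth was similar in the 4 pairs. Their summed UMIs were 9590797, 9724642, 16184801 and 10166666, their median cells held 28144 to 32092 UMIs, and the median mitochondrial share was 10.5 to 11.9%. The third hashtag held 0.622 to 1.15% of hashtag UMIs in the median cell. Of 13 epithelial markers 12 had a UMI, with a summed level of 4138 to 5691 CPM, and WT1 was at 0. Most of the sum was KRT18 (2244 to 3227 CPM). Others were near 0: CDH1, MUC16, MSLN and PAX8 reached at most 1.36, 0.417, 0.313 and 4.72 CPM. T cell markers summed to at most 0.417 CPM, with CD3D, CD3E, CD3G, IFNG and GZMB at 0. Endothelial markers summed to at most 0.626 CPM, fibroblast markers to at most 3.23 CPM, and myeloid markers to 30.0 to 36.9 CPM, most of it CD68 (25.5 to 29.3 CPM). Pairs 1+2 and 2+4 share hashtag 2, and pairs 3+5 and 5+7 share hashtag 5.

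Interferon genes were low in all 4 pairs. The summed level of 50 interferon-response genes was 4400, 3415, 3299 and 3379 CPM, against a median of 13847 CPM over the other 14 pairs. IRF1, by which the pairs were chosen, is 1 of the 50, so this contrast is partly set by the choice. MHC class II genes, which interferon-gamma induces through CIITA, summed to 41.3, 35.8, 32.8 and 41.1 CPM, against a median of 553 CPM over the other 14. Their invariant chain CD74 stood at 20.1, 18.4, 16 and 19.5 CPM. Pair 1+2 was thus 1.33-fold above pair 3+5 in the summed interferon list, while the class II sum stayed within 1.26-fold.

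**Figure D1:**
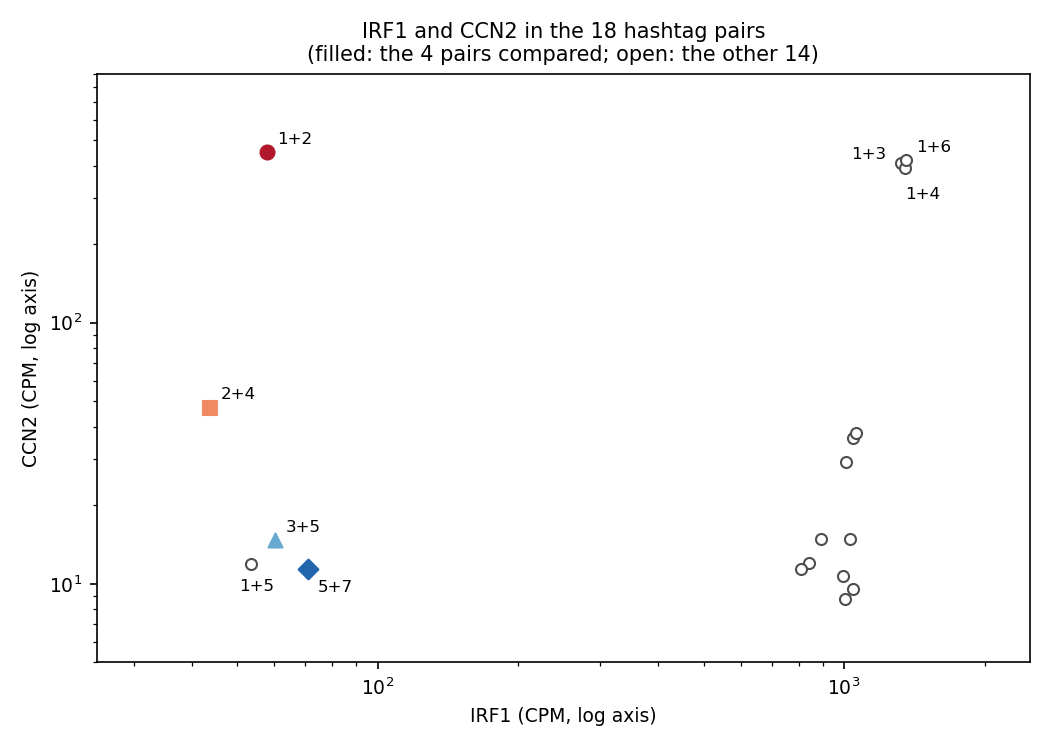
IRF1 (horizontal axis, CPM, log scale) and CCN2 (vertical axis, CPM, log scale) in the 18 hashtag pairs, 1 point per pair; filled symbols are the 4 pairs compared. The 4 pairs lie between 43.7 and 70.8 CPM of IRF1 while their CCN2 runs from 11.4 to 449 CPM.

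Most genes differed little. Of 8132 genes with at least 400 UMIs over the 4 pairs, the median span (highest pair over lowest) was 1.27-fold, and 399 (4.91%) spanned at least 2-fold. The lower limit of the span's interval was above 1.5 for 396 of these. A share of 1.38% of genes (112) stood at least 1.5-fold above every other pair in pair 1+2, 0.43% (35) in pair 2+4, 0.0492% (4) in pair 3+5 and 0.172% (14) in pair 5+7. In the other direction, 0.271% (22) stood at least 1.5-fold below every other pair in pair 1+2, 0.701% (57) in pair 2+4, 0.258% (21) in pair 3+5 and 0.541% (44) in pair 5+7. Pair 1+2 therefore held most of the high genes, and pair 3+5 had almost no gene of its own.

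Of the 399 genes, 212 were highest in pair 1+2, 95 in 2+4, 70 in 5+7 and 22 in 3+5, and 160 were lowest in pair 5+7. A fall in the order 1+2, 2+4, 3+5, 5+7 was found in 73 of them (18.3%) and in 4.92% of all genes tested. The opposite order was found in 8 of them and in 5.63% of all tested. Compared 2 at a time, pairs 3+5 and 5+7 were the closest, with 10 genes at least 2-fold higher in 3+5 and 16 in 5+7. Between pairs 1+2 and 3+5, 171 genes were at least 2-fold higher in 1+2 and 23 in 3+5. Only 39 genes spanned 4-fold, 27 of them highest in pair 1+2. By any factor, 25.7% of all genes tested were highest in pair 1+2, 25.7% in 2+4, 24.4% in 3+5 and 24.2% in 5+7, and 30.2, 25.8, 19 and 25% were lowest in those pairs.

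CCN2 and CCN1 were among the genes that differed most. CCN2 stood at 449, 47.3, 14.7 and 11.4 CPM in pairs 1+2, 2+4, 3+5 and 5+7. Its level in pair 1+2 was 9.50-fold (8.63 to 10.5) that in 2+4 and 39.4-fold (32.7 to 47.8) that in 5+7, while 3+5 was 1.29-fold (1.03 to 1.62) above 5+7. CCN1, its family member, stood at 334, 114, 37.1 and 23.8 CPM, a 14-fold span (12.3 to 16.1). Both genes ran down in the same order, with pairs 3+5 and 5+7 close to each other at the bottom.

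The other genes of the list followed in part. ANKRD1, a muscle ankyrin repeat protein and YAP target, stood at 131, 36.8, 13.9 and 9.15 CPM. AMOTL2, an angiomotin that binds YAP, stood at 67.1, 27.6, 13.9 and 12.7 CPM. LATS2, the Hippo kinase that phosphorylates YAP and is itself a YAP target, stood at 43.1, 18.7, 15.4 and 14.5 CPM. These genes were highest in pair 1+2 as CCN2 was, by smaller factors. F3, tissue factor, had another shape at 113, 124, 42.1 and 17.7 CPM. Its level in pair 2+4 was 1.10-fold (1.01 to 1.20) that in 1+2, and pair 5+7 was 2.38-fold (2.02 to 2.82) below 3+5. THBS1, a matricellular thrombospondin, likewise held its level in pair 2+4 (94.2, 106, 33.6 and 31.1 CPM).

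Of the 27 genes of this list, 22 had enough UMIs, and 14 of these (63.6%) spanned 2-fold, against 4.91% of all genes tested. Of the 14, 10 were highest in pair 1+2 and 4 in 2+4. The median span was 2.61-fold against 1.27-fold over all genes tested. Of the 5 genes under the minimum, NUAK2, a kinase induced by YAP, stood at 12.7, 6.79, 2.35 and 1.18 CPM, and EDN1, endothelin 1, at 13.2, 3.50, 0.741 and 0.984 CPM. Both were picked after their values were seen, and their counts in pairs 3+5 and 5+7 were small. The list was not uniform: NT5E (182, 206, 235 and 203 CPM) and AXL (96.6, 117, 131 and 113 CPM) were lowest in pair 1+2. The summed level was 2384, 1673, 1237 and 1029.5 CPM, a 2.32-fold span (2.26 to 2.37). CCN2 and CCN1 are members of the list, counted among the 14 and in the sum. They supply 449 and 334 CPM of the sum in pair 1+2, and 11.4 and 23.8 CPM in 5+7, so part of its span is theirs.

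**Figure D2:**
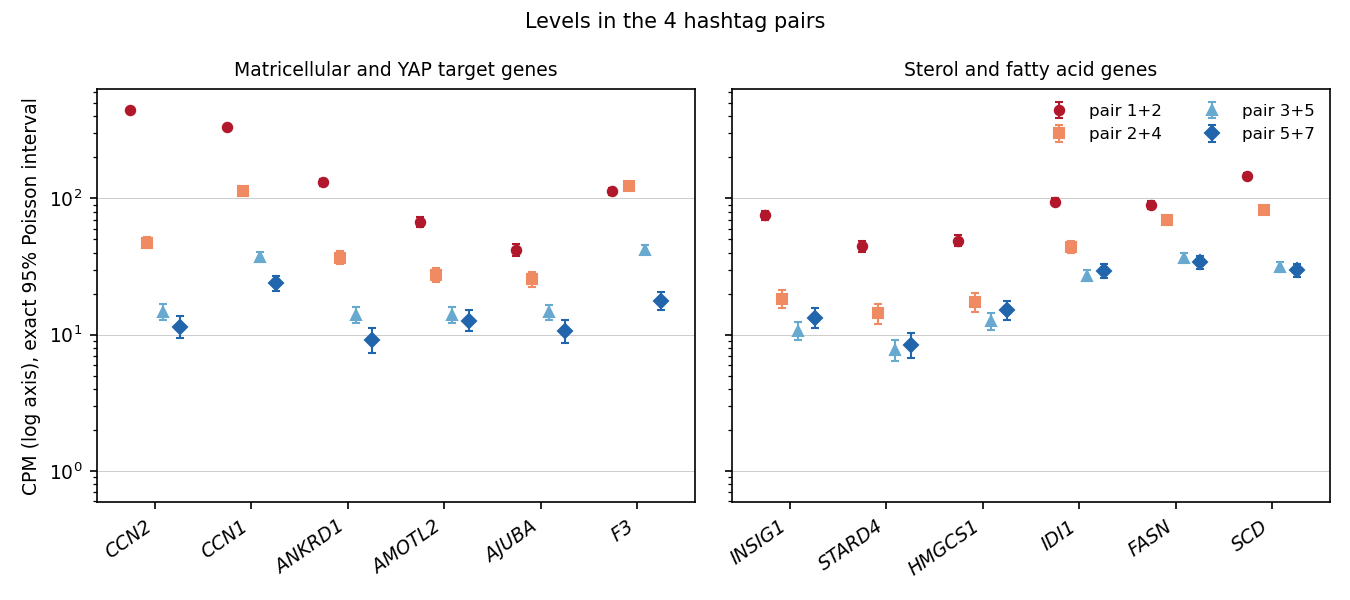
Levels (CPM, log axis) of 6 matricellular or YAP target genes (left) and 6 sterol or fatty acid genes (right) in the 4 pairs; symbols are pairs and bars exact 95% Poisson intervals. CCN2 runs from 449 to 11.4 CPM across the pairs, while the sterol genes separate pair 1+2 from the rest, with FASN and SCD also high in 2+4.

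The difference in CCN2 lay in most cells of pair 1+2, not in a few. To set depth aside, 10000 UMIs were drawn from each cell, and 321, 315, 480 and 326 cells were deep enough for this. The median cell of pair 1+2 then had 4 CCN2 UMIs, and the median cell of each other pair had 0. At least 1 CCN2 UMI was found in 87.2% (83.1 to 90.7), 25.4% (20.7 to 30.6), 11% (8.38 to 14.2) and 8.90% (6.04 to 12.5) of thinned cells. Without thinning these shares were 95, 44.1, 25.4 and 19.8%. No cell type in this pool should lack CCN2, so no background share from free RNA could be measured, and the low shares of pairs 3+5 and 5+7 are not read as expression. CCN1 gave 84.4, 54.0, 25.2 and 15.6% of thinned cells, so pair 2+4 lay nearer to pair 1+2 for CCN1 than for CCN2.

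**Figure D3:**
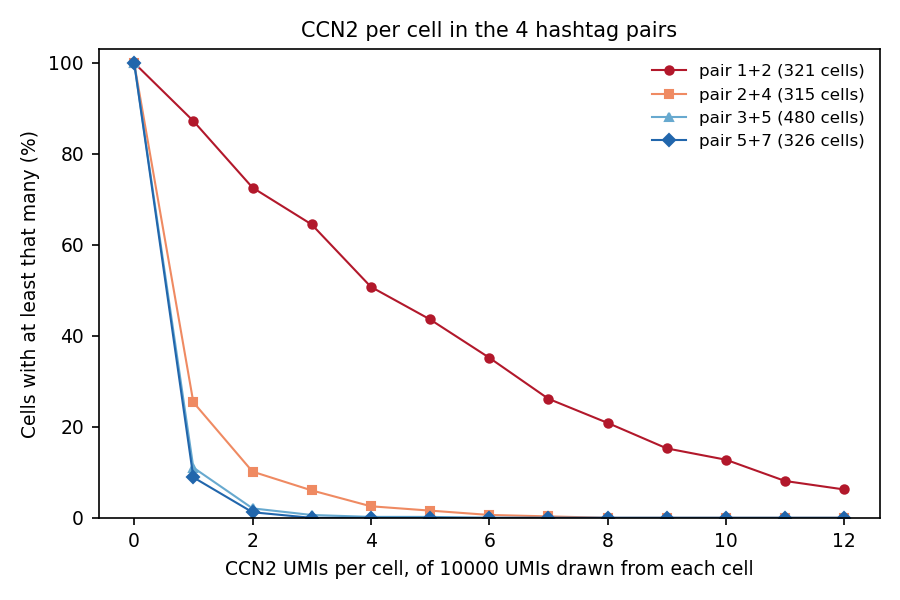
Share of cells (vertical axis, %) with at least the given number of CCN2 UMIs (horizontal axis) after each cell was thinned to 10000 UMIs, 1 line per pair. In pair 1+2 87.2% of cells have at least 1 UMI, against 25.4, 11 and 8.90% in pairs 2+4, 3+5 and 5+7.

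Cells with more CCN2 also tended to have more CCN1 in the pairs where both were found often. Across cells Spearman's rho between them was 0.37 in pair 1+2 (321 cells) and 0.32 in pair 2+4 (315 cells), with 0.15 and 0.14 in the other pairs, where counts were sparse. These cells share 1 library and 1 depth, and the values are descriptions. Between CCN2 and the summed G2 and mitosis genes rho was -0.28, -0.10, -0.03 and 0.02 in the 4 pairs.

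By the least squared distance of centred log2 CPM over the 4 pairs, among genes spanning 4-fold, those most like CCN2 were ANKRD1, CCN1, CXCL8, PDGFB and INSIG1. PDGFB, a platelet-derived growth factor chain, stood at 32.5, 11, 4.51 and 5.41 CPM. CXCL8, a neutrophil chemokine, stood at 57.9, 19.7, 2.22 and 1.08 CPM, a 53.5-fold span (29.7 to 108). All CXCL8 UMIs of pair 1+2 came from the tenth of its cells with the most, and only 5.92, 2.54, 1.67 and 0.613% of thinned cells had one. Without the rare cells high in antiviral or SERPINB3-type genes the ratio of pair 1+2 to 5+7 was 14.6-fold, and pair 1+2 then stood at 0.726 times pair 2+4. The CXCL8 order thus depended on few cells, unlike that of CCN2, whose span was 39.3-fold without them.

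Pair 1+5, with IRF1 in the same range, was among the lowest in CCN2 (11.9 CPM) and CCN1 (21.0 CPM). Of the 13 other pairs, all with IRF1 at 808 CPM or above, pairs 1+3, 1+4 and 1+6 had CCN2 at 409, 392 and 420 CPM, and the rest at 8.72 to 37.8 CPM. A level like that of pair 1+2 was thus found in 3 pairs with high IRF1 as well.

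Cholesterol genes set pair 1+2 apart from all 3 others. INSIG1, the sterol-regulated anchor that holds SREBP in the endoplasmic reticulum and is itself an SREBP target, stood at 75.0, 18.3, 10.7 and 13.3 CPM, with pair 1+2 at 4.10-fold (3.47 to 4.85) the next. HMGCS1, which makes HMG-CoA, stood at 49.0, 17.3, 12.5 and 15.1 CPM. Pair 2+4 came next for both, with INSIG1 at 1.71-fold (1.38 to 2.12) its level in 3+5. INSIG1 in 5+7 was 1.24-fold (0.984 to 1.56) that in 3+5, a difference within counting error. Outside the pairs compared, INSIG1 stood at 62.9, 63.1 and 58.8 CPM in pairs 1+3, 1+4 and 1+6, near its level in 1+2.

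Of 26 cholesterol genes 23 had enough UMIs, and 21 of these were highest in pair 1+2 (25.7% of all genes tested were). A 2-fold span was found in 11 (47.8%, against 4.91% of all genes), all of them highest in 1+2. They included STARD4, a sterol carrier (44.6, 14.3, 7.72 and 8.36 CPM), IDI1, an isomerase of the isoprenoid steps (94.9, 44.1, 27.1 and 29.5 CPM), and DHCR7, which makes cholesterol from its last precursor (61.3, 40.0, 24.3 and 22.5 CPM). SQLE, squalene epoxidase, spanned 1.49-fold (269.8, 181, 196 and 203 CPM). The summed level was 1714, 1129, 966 and 959 CPM, a 1.79-fold span (1.74 to 1.83), and the median span was 1.80-fold. The highest of the other 14 pairs stood at 1741 CPM, above pair 1+2.

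Genes of fatty acid synthesis ran down in steps. SCD, the desaturase that makes oleate, stood at 146, 82.0, 31.4 and 29.7 CPM. FASN, fatty acid synthase, stood at 88.9, 69.4, 36.7 and 34.0 CPM. Their regulator SREBF1 stood at 37.5, 18.2, 10.9 and 19.97 CPM, lowest in pair 3+5. Of 9 genes with enough UMIs 4 (44.4%, against 4.91% of all genes tested) spanned 2-fold, all highest in pair 1+2. The sums were 926, 666, 466 and 481 CPM. Of the LXR-induced efflux genes 3 were tested. ABCA1, which exports cholesterol, spanned 1.08-fold (0.866 to 1.34), while NR1H3, the receptor LXR alpha, stood at 40.1, 22.1, 22.1 and 38.8 CPM and LPCAT3, a phospholipid acyltransferase, at 38.5, 25.6, 21.1 and 22.9 CPM.

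Other genes far above the next pair in 1+2 included NAB2, NAB1, CITED2 and SERTAD1. NAB2, a corepressor of the EGR factors, stood at 32.2, 3.29, 3.27 and 4.43 CPM, with pair 1+2 at 7.28-fold (5.31 to 10.2) the next, and NAB1, its relative, stood at 56.3, 13.4, 12.7 and 12.2 CPM. CITED2, a CBP/p300-binding regulator, stood at 59.1, 12.7, 14 and 15.6 CPM. SERTAD1, a cyclin-dependent kinase 4 partner, stood at 68.9, 19.3, 19.3 and 19.4 CPM. In these 4 genes pair 2+4 was as low as 3+5 and 5+7, so of the 4 pairs compared 1+2 alone stood out. All 4 genes were also high in pairs 1+3, 1+4 and 1+6, which have high IRF1. There NAB2 stood at 27.1, 21.2 and 26.3 CPM, and SERTAD1 at 82.8, 75.8 and 84.9 CPM.

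Immediate early genes, switched on within minutes of a growth signal, were mostly highest in pair 1+2. JUN, an AP-1 subunit, stood at 193, 132, 85.2 and 41.9 CPM, and pair 5+7 was 2.03-fold (1.82 to 2.27) below 3+5. DUSP1, a MAP kinase phosphatase, stood at 43.4, 27.9, 13.2 and 6.20 CPM. JUND, another AP-1 subunit, was highest in pair 1+2 and lowest in pair 2+4 (137, 36.8, 41.8 and 62.9 CPM). Of 18 immediate early genes with enough UMIs 7 (38.9%, against 4.91% of all genes tested) spanned 2-fold, all highest in pair 1+2. The sums were 1923, 1345, 1267 and 1080.5 CPM. KLF2 ran the other way at 16.7, 19.1, 29.2 and 33.0 CPM.

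All 4 ligands of the EGF receptor with enough UMIs were highest in pair 1+2 and lowest in 5+7, against 25.7% and 25% of all genes. AREG, amphiregulin, stood at 738, 495, 356 and 312 CPM, EREG, epiregulin, at 289, 205, 165 and 142 CPM, and HBEGF, heparin-binding EGF, at 63.5, 46.0, 21.4 and 9.34 CPM. TGFA, transforming growth factor alpha, stood at 15.4, 14.6, 14.8 and 12.4 CPM, and the interval of its highest over its lowest pair, 0.975 to 1.59, held 1. For HBEGF the largest step was at the bottom, where pair 3+5 was 2.29-fold (1.82 to 2.90) above 5+7. Among TGF-beta and BMP targets, ID2, an inhibitor of DNA-binding factors, stood at 441, 220.0, 225 and 179.6 CPM, and SKIL, a SMAD corepressor, at 56.5, 19.6, 16.1 and 21.7 CPM. PLK2, a kinase induced by p53 and stress, stood at 322, 138, 85.6 and 81.6 CPM. CDKN1A, the p21 inhibitor of cyclin-dependent kinases, stood at 17.4, 9.25, 6.36 and 6.79 CPM, also highest in 1+2. Pairs 1+3, 1+4 and 1+6, with high IRF1, had AREG at 760, 707 and 696 CPM and PLK2 at 266, 262 and 267 CPM. HBEGF was lower there than in 1+2, at 37.4, 37.7 and 43.1 CPM. The EGF receptor ligands summed to 268 to 1060 CPM over the other 14 pairs, against 479 CPM in 5+7.

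**Figure D4:**
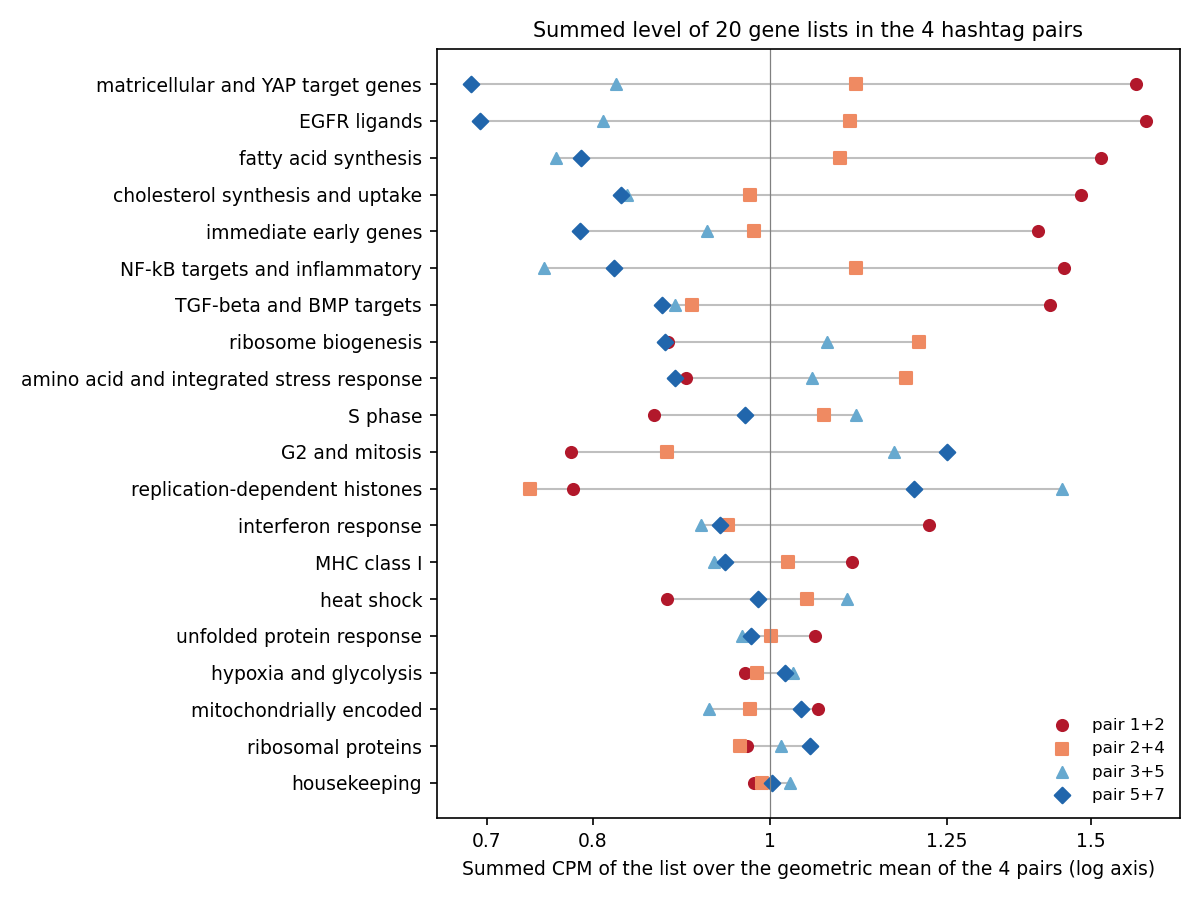
Summed CPM of 20 gene lists in each of the 4 pairs, divided by the geometric mean of the pairs (horizontal axis, log scale); each row is a list and each symbol a pair. Matricellular and YAP target genes, CCN2 and CCN1 included, span 2.32-fold and cholesterol genes 1.79-fold, with pair 1+2 highest. Ribosome biogenesis peaks in 2+4, G2 and mitosis genes are lowest in 1+2, and housekeeping genes span 1.05-fold.

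Among the 4 pairs compared, 2+4 was set apart by G0S2, by several secreted proteins and by ribosome assembly genes. G0S2, an inhibitor of triglyceride lipase, stood at 24.6, 102, 29.1 and 17.9 CPM, with pair 2+4 at 3.51-fold (3.14 to 3.92) the next. STC2, stanniocalcin 2, a stress-induced secreted glycoprotein, stood at 66.3, 132, 66.7 and 33.3 CPM. PTX3, a long pentraxin, stood at 112, 212, 75.2 and 50.7 CPM. SEMA3C, a secreted semaphorin, stood at 7.30, 19, 8.34 and 5.21 CPM, and CPA4, a carboxypeptidase, at 20.5, 42.2, 22.1 and 12.6 CPM. In each of these 5 genes pair 5+7 was the lowest. G0S2 was found in 39.7% of thinned cells of pair 2+4 against 12.0 to 19.8% in the other pairs. Outside the pairs compared, 2+6, 2+8 and 3+4 were also high. There G0S2 stood at 58.7, 70.9 and 75.1 CPM, and PTX3 at 152, 135 and 136 CPM.

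Among the genes furthest above the other pairs in 2+4 were URB1 and NOP16, nucleolar factors of the large ribosomal subunit, and this led to a list of 72 ribosome assembly genes added after those values had been seen. Of 71 tested, 59 were highest in pair 2+4 (25.7% of all genes were) and none in 5+7. A 2-fold span was found in 14 (19.7%, against 4.91% of all genes). These counts are no independent evidence, since genes high in 2+4 prompted the list. DDX21, a nucleolar RNA helicase, stood at 160, 254, 154 and 107 CPM. POLR1E, a subunit of RNA polymerase I, stood at 44.3, 79.7, 47.7 and 31.8 CPM. The summed level was 8068, 11074, 9862 and 8044 CPM, a 1.38-fold span (1.36 to 1.39). The highest of the other 14 pairs stood at 10740 CPM, and DDX21 stood at 256, 258 and 248 CPM in pairs 2+6, 2+8 and 3+4. The median thinned cell held 76, 109, 99 and 77 UMIs of the list per 10000. Ribosomal protein genes did not follow, with sums of 76901, 76265, 80264 and 83301 CPM.

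The lowest genes of pair 2+4 included interferon-induced ones. IFIT2, an antiviral RNA-binding protein, stood at 40.0, 15.1, 38.2 and 46.2 CPM, and IFIT1 at 55.8, 18.5, 41.7 and 45.7 CPM. A few cells held most of both genes: 72.0 and 73.1% of the UMIs of IFIT1 and IFIT2 in their highest pair came from the tenth of cells with the most. Cells high in CCL5, RSAD2, HERC5 and OASL numbered 26, 19, 37 and 20. Without those and the SERPINB3-type cells, the ratio of the same highest to the same lowest pair was 3.29-fold for IFIT1 and 4.25-fold for IFIT2. ETV1, an ETS factor (23.3, 8.23, 19.96 and 26.4 CPM), and THRA, a thyroid hormone receptor (13.3, 5.76, 12.6 and 17.5 CPM), were lowest in 2+4 as well.

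Pair 3+5 had few genes of its own. GNA15, a G protein alpha subunit, stood at 10.1, 13.1, 24.8 and 14.2 CPM, and KIAA1549L at 5.21, 7.92, 13.8 and 8.07 CPM. The other genes past 1.5-fold, LAT and HGH1, lay at 13.8 and 16.1 CPM in pair 3+5, and their intervals over the next pair were 1.17 to 1.95 and 1.19 to 1.90. More genes were lowest there. ADH1C, an alcohol dehydrogenase, stood at 14.9, 10.3, 2.78 and 12.0 CPM, with the next pair, 2+4, at 3.70-fold (2.58 to 5.38) above 3+5. NNMT, which methylates nicotinamide, stood at 279, 154, 66.9 and 123.3 CPM. CD24, a mucin-like surface protein, stood at 19.2, 8.12, 3.95 and 7.67 CPM.

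Genes far above the other compared pairs in 5+7 included ELF3, TXNIP, CREBRF, TSHZ1 and PNRC1. ELF3, an epithelial ETS factor, stood at 16.9, 7.82, 17.7 and 54.1 CPM, with pair 5+7 at 3.05-fold (2.64 to 3.53) the next. TXNIP, a thioredoxin-binding protein that limits glucose uptake, stood at 17.3, 13.6, 22.7 and 47.8 CPM. Outside the pairs compared, TXNIP was higher still in 2+5, 5+8, 6+8 and 7+8 (63.4, 57.0, 57.1 and 67.9 CPM). CREBRF, a negative regulator of CREB3, stood at 7.40, 4.42, 8.22 and 20.3 CPM. TSHZ1, a zinc finger homeobox factor (9.90, 6.07, 16.8 and 30.2 CPM), and PNRC1, a nuclear receptor coactivator (13.6, 5.86, 10.9 and 23.9 CPM), had the same highest and lowest pairs. In all 5 genes pair 2+4 was the lowest.

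DDIT4, an inhibitor of mTORC1 induced by stress, split the pairs 2 against 2 at 9.38, 14.2, 44.5 and 61.6 CPM. Pair 3+5 was 3.13-fold (2.61 to 3.79) above 2+4. In pair 1+5 ELF3 stood at 39.4 CPM and DDIT4 at 54.4 CPM, nearest to pair 5+7. At the other end, SNAI2, an epithelial-mesenchymal transition factor, stood at 39.0, 26.9, 13.4 and 6.10 CPM, and SPOCD1 at 22.3, 16.4, 18 and 7.18 CPM. TPM1, an actin-binding tropomyosin, stood at 412, 543, 415 and 225 CPM, lowest in 5+7.

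**Figure D5:**
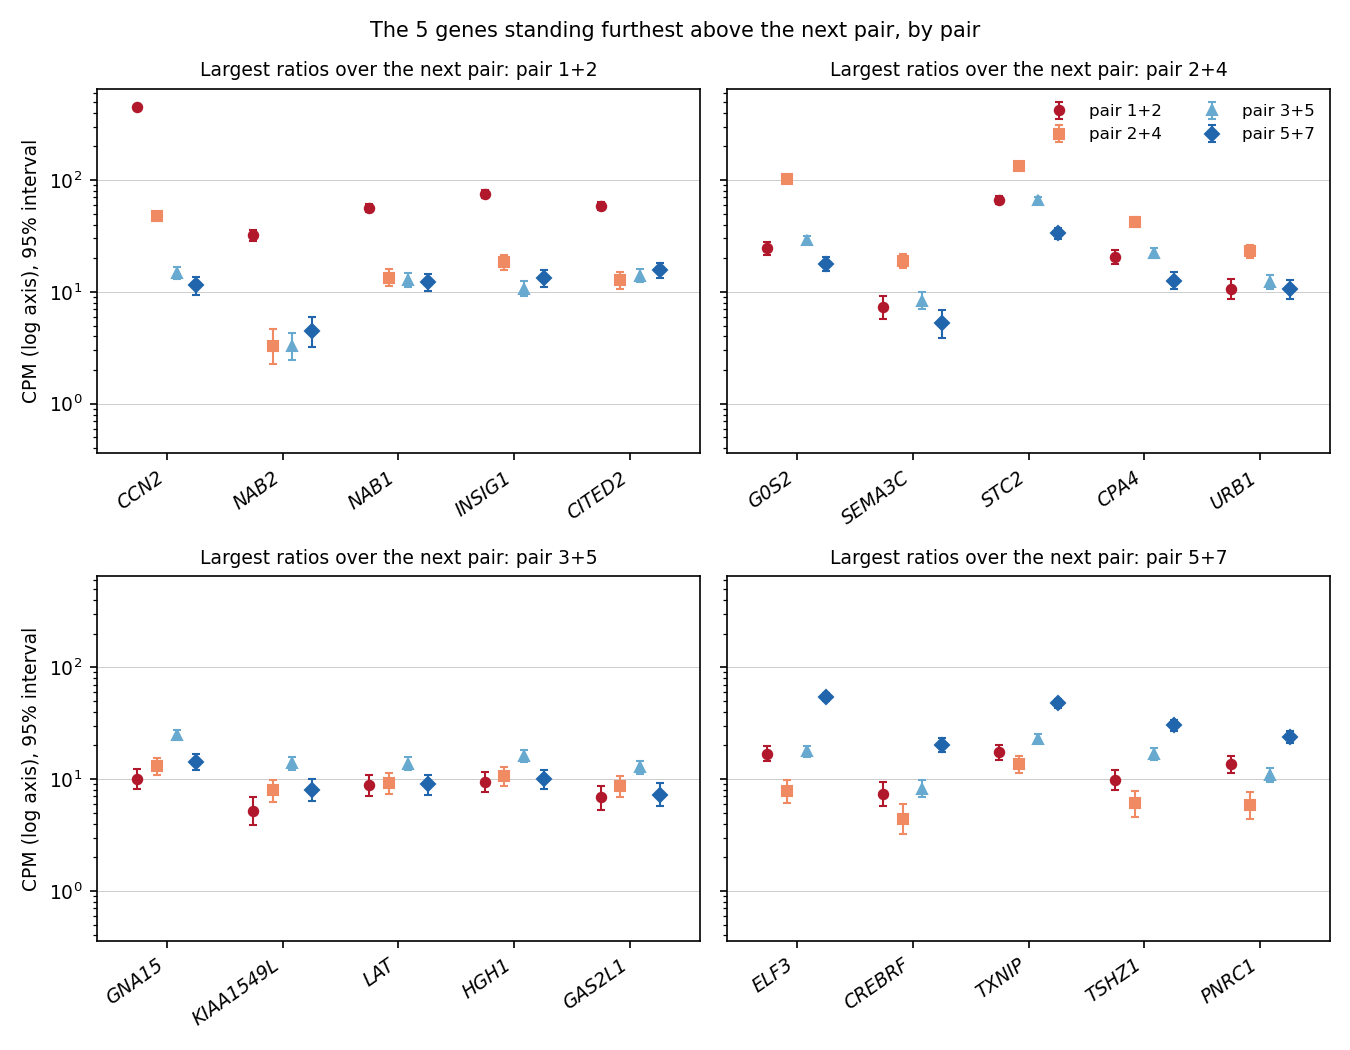
Levels (CPM, log axis) of the 5 genes with the largest ratio over the next pair, 1 panel for each of the 4 pairs; symbols are pairs and bars exact 95% Poisson intervals. CCN2 stands 9.50-fold above the next pair in 1+2, G0S2 3.51-fold in 2+4 and ELF3 3.05-fold in 5+7, while GNA15, the first gene of 3+5, reaches 1.75-fold.

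Genes of G2 and mitosis were in sum lowest in pair 1+2 and highest in 5+7. The 32 genes of G2 and mitosis summed to 3399, 3835, 5105 and 5463 CPM, a 1.61-fold span (1.59 to 1.63), with a median span of 1.68-fold. Of these, 30 were lowest in pair 1+2 and 26 highest in 5+7, against 30.2% and 24.2% of all genes tested. A 2-fold span was found in 3 (9.38%, against 4.91% of all genes): CCNF, BUB1 and DLGAP5. BUB1, a spindle checkpoint kinase, stood at 44.4, 58.7, 88.5 and 95.7 CPM. KIF20A, a cytokinesis kinesin outside the list, stood at 23.3, 24.6, 31.3 and 51.2 CPM, and at 53.8 CPM in pair 1+5. Over the other 14 pairs the summed G2 and mitosis list ran from 3076 to 5427 CPM, the latter in pair 1+5.

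Replication genes had another order. The 28 S phase genes summed to 1718, 2128, 2214 and 1926 CPM, and only CCNE2, cyclin E2, spanned 2-fold (18.4, 20.8, 16.1 and 9.44 CPM). That was 3.57% of the list, near the 4.91% of all genes tested. Replication-dependent histones, made in S phase, summed to 615, 582, 1139 and 944 CPM. HIST1H1D, a linker histone, stood at 37.4, 39.0, 118 and 83.4 CPM. In the cells low in cycle genes described next, HIST1H1D in pair 3+5 was instead 0.66 times that in 5+7. Those cells were chosen in part by their histone UMIs, HIST1H1D among them, so this ratio is partly set by the choice. The histone sum was thus highest in pair 3+5 and the mitosis sum in pair 5+7 over all cells, and pair 1+2 was low in both. Because replication-dependent histone mRNAs mostly lack a poly(A) tail, their capture by this 3' assay is partial.

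Over all 4 pairs together, cells were split at the median share of UMIs from the S phase, G2 and mitosis and histone lists. The lower part made up 65.0, 61.3, 34.9 and 46.4% of the pairs. In pair 1+2 the S phase and the G2 and mitosis totals of thinned cells were correlated (Spearman's rho 0.58, 321 cells), while in the other pairs rho was 0.02, -0.10 and 0.14. The tenth percentile of G2 and mitosis UMIs per 10000 was 1, 3, 9.9 and 6, so pair 1+2 held many cells low in mitosis genes. Among cells of the lower part alone CCN2 spanned 47.3-fold, CCN1 14.1-fold and the cholesterol sum 1.89-fold. The mitosis sum still spanned 1.77-fold in that part, so cycle state was not made equal between the pairs. Its share in these differences was not tested.

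Stress lists differed from each other. Of the unfolded protein response, heat shock and metallothionein lists 0 of 19, 0 of 13 and 0 of 5 genes spanned 2-fold, near the 4.91% of all genes tested. CALR, an endoplasmic reticulum chaperone, spanned 1.03-fold (0.996 to 1.07). HSP90AA1, a cytosolic chaperone, stood at 3831, 4417, 5119 and 4604 CPM, lowest in pair 1+2. Of 23 hypoxia and glycolysis genes, ADM, adrenomedullin (74.3, 44.4, 37.1 and 26.4 CPM), and ALDOC spanned 2-fold, 8.70% of those tested. Of 19 genes of the amino acid and integrated stress response, 4 (21.1%) spanned 2-fold in differing orders. They were DDIT4 and STC2 as above, GDF15 (44.0, 16.8, 17.0 and 24.5 CPM), a stress cytokine highest in 1+2, and SLC7A5, an amino acid transporter (107, 143, 94.1 and 62.6 CPM), highest in 2+4. HMOX1, heme oxygenase, was the only one of 17 NRF2 targets (5.88%) past 2-fold (41.9, 27.0, 18.5 and 30.0 CPM).

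Within the interferon list 7 of 35 tested genes (20%, against 4.91% of all genes) spanned 2-fold, 6 of them highest in pair 1+2 and 1 in 5+7. Of all 35, 26 were highest in pair 1+2, against 25.7% of all genes tested. GBP1, a guanylate-binding protein, stood at 44.3, 28.3, 11.2 and 11.3 CPM and GBP2 at 22.4, 15.7, 6.06 and 10.2 CPM, both highest in pair 1+2. In the other 14 pairs GBP1 had a median of 540.3 CPM. IFIT3 was lowest in 2+4 (122.8, 51.4, 98.9 and 118 CPM) as IFIT1 and IFIT2 were, and MX1, an antiviral GTPase, was highest in 1+2 (49.9, 28.4, 31.2 and 23.7 CPM). Class I genes differed by 1.19-fold in sum.

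Several other lists had more genes highest in pair 1+2. Of 12 NF-kB and inflammatory genes with enough UMIs, CXCL8 among them, 7 (58.3%, against 4.91% of all genes) spanned 2-fold, 6 of them highest in 1+2. BIRC3, an inhibitor of apoptosis, stood at 61.7, 61.3, 22.9 and 27.3 CPM, alike in 1+2 and 2+4. TNFAIP2 stood at 83.4, 39.2, 46.6 and 76.6 CPM, highest in the first and the last pair. NFKBIA, which holds NF-kB in the cytoplasm, stood at 122.9, 84.9, 57.3 and 57.4 CPM, and its 2.15-fold difference between 1+2 and 3+5 was 1.40-fold when cells were weighted alike. Among aryl hydrocarbon receptor targets, TIPARP, a mono-ADP-ribosyltransferase, stood at 54.1, 24.7, 18.5 and 14.5 CPM and CYP1B1, a cytochrome P450, at 650.1, 486, 309 and 345 CPM. DKK1, a secreted WNT antagonist, stood at 152, 128, 52.3 and 42.1 CPM.

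Genes of the cytoskeleton and of adhesion separated the first pairs from the last ones in part. VCL, vinculin, stood at 217, 179, 101 and 99.9 CPM, and ZYX, zyxin, at 55.5, 52.5, 26.9 and 21.9 CPM. Of 25 such genes 3 (12%) spanned 2-fold, against 4.91% of all genes tested. Lowest in pair 5+7 were 16 of the 25, against 25% of all genes tested. All 13 lysosome and autophagy genes tested were highest in pair 1+2, against 25.7% of all genes, and 0 spanned 2-fold. CTSD, cathepsin D, stood at 523, 445, 345 and 333 CPM. KRT18, a simple epithelial keratin, stood at 3227, 2803, 2268 and 2244 CPM. NEAT1, the long noncoding RNA of paraspeckles, ran up instead, at 723, 823, 998 and 1429 CPM. Mitochondrially encoded genes spanned 1.15-fold in sum, nuclear respiratory chain genes 1.02-fold and ribosomal proteins 1.09-fold.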

How the data were processed

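The authors' deposited matrix held raw UMI counts for 36601 genes and 8 hashtags in 7804 barcodes. Its file header gives Cell Ranger 5.0.1; version 2.1.1 and GRCh38 stand in the submitters' processing notes, and which applies was not settled. The barcode calling is not described in these sources. The pairs, lists and rules were chosen with earlier results of these data known.

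Cells and pairs were selected as stated above, and 1087 cells without a clear pair, among them cells of several pairs, were left out. Doublets within a pair cannot be seen, no doublet caller was run, and free RNA was not subtracted. Levels (CPM) are each gene's UMIs over all cells of a pair, scaled by all gene UMIs of that pair. Intervals are exact Poisson for levels, exact conditional for ratios and Clopper-Pearson for shares, at 95%. Counts under 3 were set to 3 in ratios. Named genes were CCN2, CCN1, per pair the 8 furthest above and 5 furthest below the other pairs, per list up to 6 spanning 2-fold or else 3 by level, and the 5 most like CCN2. Other list members printed were chosen after their values were seen. A few genes of these lists are not reported here. Alternatives changed the filter, pair rule, depth, cell weights, denominator, scaling, rare cells, cycle cells, deepest cells and UMI minimum. Calculations were tested on simulated data. Python 3.11.15, numpy 2.4.6, scipy 1.17.1, pandas 2.3.3 and matplotlib 3.10.9 were used.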

Additional observations from a re-analysis of the deposited data

Results flagged for a closer look

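CCN2 was also found in barcodes that no comparison used. In the 1087 cells without a pair it stood at 84.6 CPM, where 3 UMIs would give 0.0568 CPM, and in the 603 barcodes that failed the cell filter it stood at 73.85 CPM, where 3 UMIs would give 0.756 CPM. Both levels lie between those of pairs 1+2 and 2+4.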

How the results depend on the processing

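With 1 sample per pair, differences between pairs and differences between the cultures behind them cannot be told apart. At this depth genes under 400 UMIs were left out of the main counts, though levels of NUAK2 and EDN1 were printed. The CCN2 span stayed between 37.5-fold and 47.3-fold under all 9 alternatives run on it. With a minimum of 100 UMIs, 1053 genes spanned 2-fold, 247, 75, 17 and 63 stood highest by 1.5-fold and 73, 196, 86 and 105 lowest, in the pair order above; with 1000 UMIs these were 197, then 59, 22, 0 and 5, then 5, 16, 6 and 25. After thinning, 199 genes spanned 2-fold, 55 and 3 stood highest in 1+2 and 5+7, and 14, 19, 7 and 26 lowest. With cells weighted alike, 8 and 22 genes stood highest in 3+5 and 5+7, 43 lowest in 1+2, and CCN1 spanned 10.8-fold. Without mitochondrial UMIs 2 genes stood highest in 3+5. Among low-cycle cells 0 and 7 stood highest in 3+5 and 5+7, and 34, 27 and 12 lowest in 1+2, 2+4 and 3+5.

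Spans under an alternative are ratios of the same highest to the same lowest pair. Without rare cells the matricellular, cholesterol and mitosis sums spanned 2.37-fold, 1.85-fold and 1.75-fold. Among low-cycle cells the matricellular, cholesterol, mitosis, early gene and ribosome assembly sums spanned 2.46, 1.89, 1.77, 1.97 and 1.40-fold. Mitosis genes were among those that chose these cells, so their span there is partly set by the choice. Mitosis genes spanned 1.68-fold under the stricter pair rule, 1.71-fold thinned and 1.54-fold with cells weighted alike, where early genes spanned 1.69-fold. Ribosome assembly spanned 1.36-fold under the stricter filter and 1.41-fold with other size factors; that list was added after the data were seen.

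Some ratios turned below 1. Highest over next pair became 0.892 for IFIT2 under the stricter pair rule, 0.997, 0.99 and 0.986 for MT-CO3 thinned, with cells weighted alike and in low-cycle cells, and 0.996 for SPOCD1 weighted alike. In low-cycle cells it became 0.842 for SPOCD1, 0.66 for HIST1H1D, 0.999 for HSP90AB1 and 0.996 for RPLP1. Without rare cells it became 0.48 for RSAD2, 0.726 for CXCL8 and 0.842 for IFIT1, and highest over lowest became 0.347 for S100A9. The nuclear respiratory chain sum gave 0.996 with other size factors. In low-cycle cells the span became 7.83-fold for CPA4, 10.2-fold for DDIT4, 4.04-fold for KIAA1549L, 7.51-fold for NAB1, 2.11-fold for SEMA3C and 2.01-fold for SPOCD1. The cause of these changes was not tested. Without rare cells the SERPINB3-type sum spanned 15.3-fold in place of 1.41-fold. Rare cells were chosen by UMIs of SERPINB3, SERPINB4 and PCSK1N or of CCL5, RSAD2, HERC5 and OASL. The SERPINB3-type sum and the RSAD2 ratio without them are therefore partly set by that choice, as the HIST1H1D ratio is in low-cycle cells. Of 1395 recomputed spans of named genes 1238 stayed within their interval, 156 moved out of it and 1 reversed; of 279 spans of other list sums 181 stayed, 97 moved and 1 reversed. No paired analysis was possible because each pair is 1 sample and the labels give no replicate numbers.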
